A study of Mus musculus with 6 samples.

Results

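The 10 genes followed here belong to neutrophil granules or are the S100 alarmin pair, and their RNA was compared between mature dendritic cells and cells kept on spleen stroma: Mpo, Elane, Prtn3, Ctsg, Ltf, Camp, Ngp, Mmp8, S100a8 and S100a9. They were chosen by symbol in a table of 15282 genes, and 10 of the 10 were listed in it. Per the labels, the dendritic cells of both groups were wild type and were grown from C57/BL6 mouse bone marrow. The maDC group was grown for 6 days in the presence of IL-4 and GM-CSF, then received bacterial lipopolysaccharide (LPS) for 24 hours, and CD11c+ cells were kept with magnetic beads. The diffDC group consisted of such cells after a further 9 days on spleen stromal cells, whose strain and genotype the labels do not give. The labels give 3 libraries per group, but the values used here are 1 pooled read number per gene and group, so no difference has a replicate check. The sources used here do not say whether a bead selection or any other removal of stroma followed the coculture, so the diffDC reads can include RNA of stromal cells.

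Neutrophils are short-lived phagocytes that pack antimicrobial proteins into granules made in sequence during their growth in bone marrow. Primary (azurophil) granules are filled first, at the promyelocyte stage, with myeloperoxidase and serine proteases. Specific granules follow at the myelocyte stage with lactoferrin and cathelicidin, and gelatinase granules come last. S100A8 and S100A9 form calprotectin, a calcium- and metal-binding complex abundant in the cytosol of neutrophils and monocytes, which acts outside cells as an alarmin through Toll-like receptor 4 and RAGE. Bone marrow cultures with GM-CSF can hold granulocytes and their precursors beside dendritic cells.

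The promoters of the 4 primary granule genes and of 3 specific granule genes (Ltf, Camp and Ngp) are shown first. Most members of each set moved in the same direction between the pools. Mmp8, of specific or gelatinase granules, moved opposite to these 3 and was kept apart. Each line holds the 250 bases before the RefSeq start site in GRCm38.p6, 5′ to 3′ on the gene's strand. Capitals mark GAGGAA, a core bound by PU.1, and TTNNGNAA, a loose pattern of C/EBP factors, each searched on both strands (TTCCTC and TTNCNNAA). The windows are Mpo chr11:87793534-87793783 (plus strand), Elane chr10:79886062-79886311 (plus strand), Prtn3 chr10:79879417-79879666 (plus strand), Ctsg chr14:56102575-56102824 (minus strand), Ngp chr9:110419558-110419807 (plus strand), Camp chr9:109849457-109849706 (minus strand) and Ltf chr9:111019042-111019291 (plus strand).
Mpo: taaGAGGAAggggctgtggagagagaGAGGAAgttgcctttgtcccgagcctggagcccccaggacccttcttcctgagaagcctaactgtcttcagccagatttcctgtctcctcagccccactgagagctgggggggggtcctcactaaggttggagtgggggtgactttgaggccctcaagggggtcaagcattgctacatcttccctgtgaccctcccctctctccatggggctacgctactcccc
Elane: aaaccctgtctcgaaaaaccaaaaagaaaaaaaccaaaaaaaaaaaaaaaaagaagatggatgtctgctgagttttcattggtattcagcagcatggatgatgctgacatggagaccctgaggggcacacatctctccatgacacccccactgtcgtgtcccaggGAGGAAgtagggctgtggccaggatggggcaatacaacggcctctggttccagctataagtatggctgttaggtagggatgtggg
Prtn3: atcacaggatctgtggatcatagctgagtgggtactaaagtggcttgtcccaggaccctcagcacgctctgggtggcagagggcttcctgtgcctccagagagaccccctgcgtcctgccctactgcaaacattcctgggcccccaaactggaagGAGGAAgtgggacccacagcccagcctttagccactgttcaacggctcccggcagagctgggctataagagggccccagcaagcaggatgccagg
Ctsg: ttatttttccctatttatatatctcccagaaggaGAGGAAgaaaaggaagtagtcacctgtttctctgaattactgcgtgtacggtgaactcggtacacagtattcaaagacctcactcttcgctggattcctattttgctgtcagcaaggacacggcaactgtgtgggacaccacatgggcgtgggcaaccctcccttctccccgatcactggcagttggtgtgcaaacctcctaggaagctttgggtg
Ngp: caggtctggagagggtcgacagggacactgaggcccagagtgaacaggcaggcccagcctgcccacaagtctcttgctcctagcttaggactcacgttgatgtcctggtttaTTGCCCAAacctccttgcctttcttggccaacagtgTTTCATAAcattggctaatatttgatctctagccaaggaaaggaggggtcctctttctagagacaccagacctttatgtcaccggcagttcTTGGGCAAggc
Camp: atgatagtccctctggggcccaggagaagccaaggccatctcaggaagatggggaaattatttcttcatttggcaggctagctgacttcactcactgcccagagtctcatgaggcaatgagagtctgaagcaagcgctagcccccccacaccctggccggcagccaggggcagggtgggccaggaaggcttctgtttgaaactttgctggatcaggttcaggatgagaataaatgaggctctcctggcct
Ltf: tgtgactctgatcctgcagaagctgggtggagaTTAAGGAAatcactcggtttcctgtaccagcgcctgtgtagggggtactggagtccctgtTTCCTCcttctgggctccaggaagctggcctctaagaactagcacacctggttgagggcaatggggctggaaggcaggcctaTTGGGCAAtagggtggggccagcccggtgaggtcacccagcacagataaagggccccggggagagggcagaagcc

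GAGGAA was in the windows of 4 of the 4 primary granule genes and of 3 of the 6 others (Ltf, Mmp8 and S100a8), against 23.3% of the 32851 windows of all promoters. The TTNNGNAA pattern was in 0 of the 4 primary granule windows and in 5 of the 6 others, all but Camp, against 36.8% of all windows. In Prtn3 and Elane the GAGGAA match began 95 and 85 bases before the start site, and in Ngp the TTNNGNAA matches began 138, 102 and 11 bases before it. Of 4 further motifs searched in the 10 windows, AACNG (Myb) was in 10, AATC (Gfi1) in 6, TGNGGT (RUNX) in 4 and TATAAA in 2, against 74.2%, 69.0%, 40.1% and 12.4% of all windows. The motifs were picked with the members known. A match is a description of the letters and not a binding site.

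In diffDC, 3 of the 4 primary granule genes rose and the specific granule genes Ltf, Camp and Ngp fell. Mmp8, of specific or gelatinase granules, rose, so the 4 genes of these granules had 1 higher and 3 lower. Under the call rule used here, a scaled ratio of at least 2-fold with a 95% counting interval that excludes no difference, 4 of the 10 genes rose (Mpo, Elane, Ctsg and Mmp8), 5 fell (Ltf, Camp, Ngp, S100a8 and S100a9) and Prtn3 was not called. Over the whole table, 23.3% of genes were called higher and 21.0% lower, 44.3% in all. With the library factor of the authors' deposited log2 ratios, which raises every log2 ratio by 0.44, the split over the table moved from 3562 higher and 3204 lower to 4915 and 2400, and that of the 10 genes to 5 and 5.

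**Figure D1:**
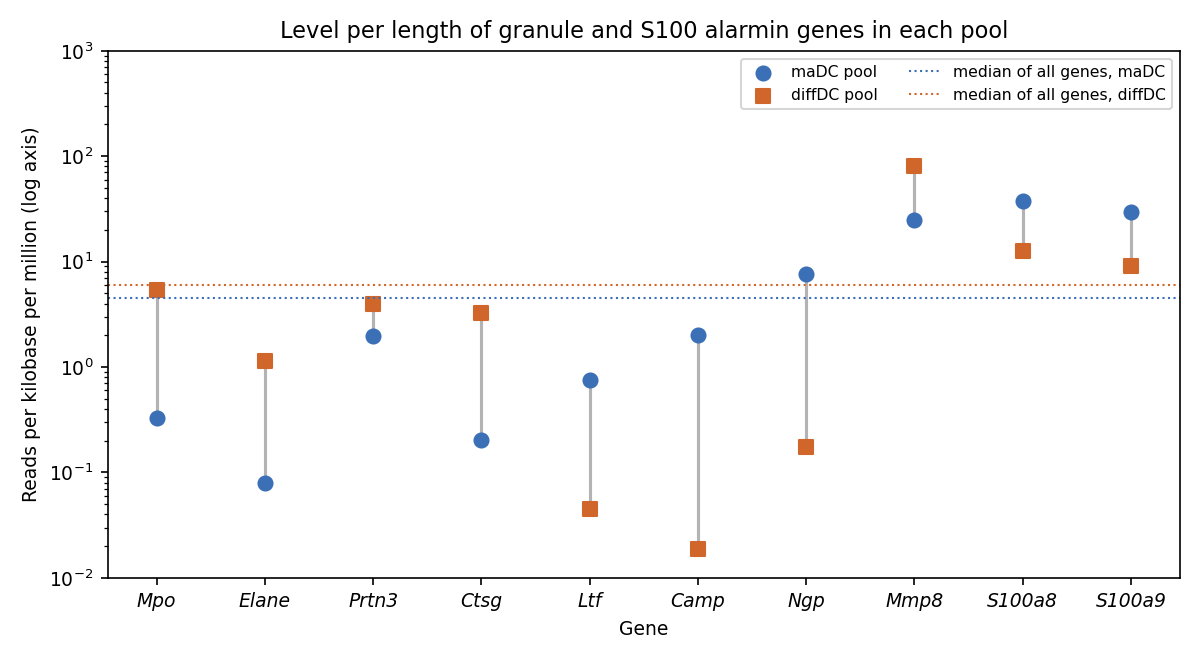
Level of each gene per length in the maDC pool (circles) and the diffDC pool (squares), in RPKM on a log axis, with dotted lines at the median of all genes (4.49 in maDC and 5.98 in diffDC). The 4 primary granule genes sit higher in diffDC, Ltf, Camp and Ngp far lower, and Mmp8 is the highest of the 10 in diffDC at 80.7.

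Read numbers summed to 69190437 in the maDC pool and 89836110 in the diffDC pool. The 10 genes together held 107 CPM (reads relative to the library total) in maDC and 230 CPM in diffDC, and Mmp8 alone held 61.0 and 198 CPM of these. Intervals cover counting error only: differences between cultures, PCR copies and the assignment of shared reads are outside them. Fewer cells of a type and less RNA per cell cannot be told apart in bulk RNA.

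Among the primary granule genes, Mpo encodes myeloperoxidase, which makes hypochlorous acid from hydrogen peroxide and chloride. It was listed with 57.65 reads in maDC and 1231.76 in diffDC. After scaling it rose 14.5-fold (interval 11.05 to 19.0). Its values carry decimals, which can arise when reads shared with other features are divided.

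Elane encodes neutrophil elastase, a serine protease that digests elastin and bacterial proteins. It went from 5 to 95 reads and rose 12.9-fold (interval 5.32 to 40.5). The width of that interval comes from the 5 reads in maDC. Ctsg encodes cathepsin G, a chymotrypsin-like protease of neutrophils that is also made by mast cells. It rose from 14 to 294 reads, 14.2-fold (interval 8.34 to 26.3).

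Prtn3 encodes proteinase 3, the elastase-like autoantigen of granulomatosis with polyangiitis in humans. It had the most reads of the 4 in maDC, 131, and 349 in diffDC. Its ratio was 1.80-fold higher (interval 1.47 to 2.22), under the 2-fold limit. This gene was the only one of the 10 whose call turned with the scaling: its log2 ratio of 0.85 became 1.04 with library totals and 1.29 with the authors' library factor, both past the limit.

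The log2 ratios of Mpo, Ctsg and Elane lay close together, at 3.85, 3.83 and 3.68, while that of Prtn3 was 0.85. A difference between the log2 ratios of 2 genes does not depend on the library factor. It was 3.004 for Mpo over Prtn3 (interval 2.50 to 3.50), 2.98 for Ctsg over Prtn3 (2.14 to 3.92) and 2.83 for Elane over Prtn3 (1.51 to 4.52). For Mpo over Ctsg the difference was 0.02 (-0.96 to 0.90) and for Mpo over Elane 0.17 (-1.55 to 1.51), intervals that include 0 without showing that the genes moved alike. Prtn3 and Elane lie 3.14 kb apart on chromosome 10 in the same orientation. Per length, Elane stood at 0.0403 of the Prtn3 level in maDC and at 0.288 of it in diffDC.

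Ms4a3, which marks granulocyte and monocyte progenitors in the mouse, went the same way as these genes, from 3 to 147 reads, 33.2-fold higher (interval 11.1 to 163). It is not among the 12 progenitor markers described below. Of those, 7 were called lower and 1 higher, beside 21.0% and 23.3% of all genes, and their median log2 ratio was -1.51. Ctsc encodes dipeptidyl peptidase I, which activates elastase, proteinase 3 and cathepsin G by removing a short propeptide, and it rose 2.38-fold (interval 2.35 to 2.41), from 26927 to 94658 reads. Srgn encodes serglycin, the proteoglycan core on which granule proteases are stored, and it fell 7.36-fold (interval 7.22 to 7.51).

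Of the specific granule genes, Ngp encodes neutrophilic granule protein, a cystatin-like protein of mouse granules. It fell 50.1-fold, from 610 to 18 reads (interval 31.4 to 85.1). Camp encodes cathelicidin, the precursor of the antimicrobial peptide CRAMP. Its reads went from 84 to 1, 124-fold lower, with an interval of 21.7 to 4960 that a single read sets. Ltf encodes lactoferrin, which binds iron and withholds it from bacteria. It fell 19.1-fold (interval 10.3 to 39.1), from 142 to 11 reads.

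The 3 genes together went from 836 to 30 reads, a log2 ratio of -5.36 (interval -5.94 to -4.84), whereas the 4 primary granule genes together went from 207.65 to 1969.76, a log2 ratio of 2.68 (2.47 to 2.89). These summed ratios are weighted to the genes with most reads, Ngp and Mpo. With Mmp8 added to the 3 genes, the sum went from 5060 to 17810 reads, a log2 ratio of 1.25 (interval 1.21 to 1.30). Most reads of that sum were those of Mmp8. Within the specific granule set, the log2 ratio of Ltf lay 1.39 above that of Ngp (interval 0.13 to 2.59). Camp lay 1.31 below Ngp, with an interval of -6.71 to 1.39 that includes 0. All 3 lie on chromosome 9, with 570 kb between Camp and Ngp and 596 kb between Ngp and Ltf.

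Lcn2, the siderophore-binding lipocalin of specific granules, is no member but is usually made with Ltf. It fell 22.7-fold (interval 20.9 to 24.8), from 8862 to 576 reads. Its log2 ratio differed from that of Ltf by -0.25 (interval -1.15 to 0.79), an interval that includes 0 without showing that the genes moved alike. The log2 ratio of Lcn2 lay 1.14 above that of Ngp (interval 0.45 to 1.91). LPS is known to induce Lcn2 in macrophages and dendritic cells as well.

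Mmp8 encodes neutrophil collagenase, which cleaves fibrillar collagen and is stored ready-made in granules. It had the most reads of the 10 genes in either pool, 4224 in maDC and 17780 in diffDC, and rose 2.85-fold (interval 2.75 to 2.95). Its log2 ratio of 1.51 lay 5.76 above that of Ltf (interval 4.88 to 6.80) and 2.34 below that of Mpo (the difference of Mpo over Mmp8 had an interval of 1.95 to 2.74). Mmp8 also exceeded Prtn3, which lay 0.66 below it (difference -0.66, interval -0.96 to -0.35). In diffDC it ranked 861st of 15282 genes per length, against rank 2839 in maDC.

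The alarmin pair fell together. S100a8 went from 1024.5 to 443.33 reads, 3.41-fold lower (interval 3.05 to 3.83). S100a9 went from 1082 to 429 reads, 3.73-fold lower (interval 3.33 to 4.18). Their log2 ratios differed by 0.13 (interval -0.11 to 0.36), an interval that includes 0. Per length, S100a8 was 1.27 times S100a9 in maDC (interval 1.16 to 1.38) and 1.38 times in diffDC (1.21 to 1.58). The 2 genes lie 22.6 kb apart on chromosome 3 and point toward each other.

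**Figure D2:**
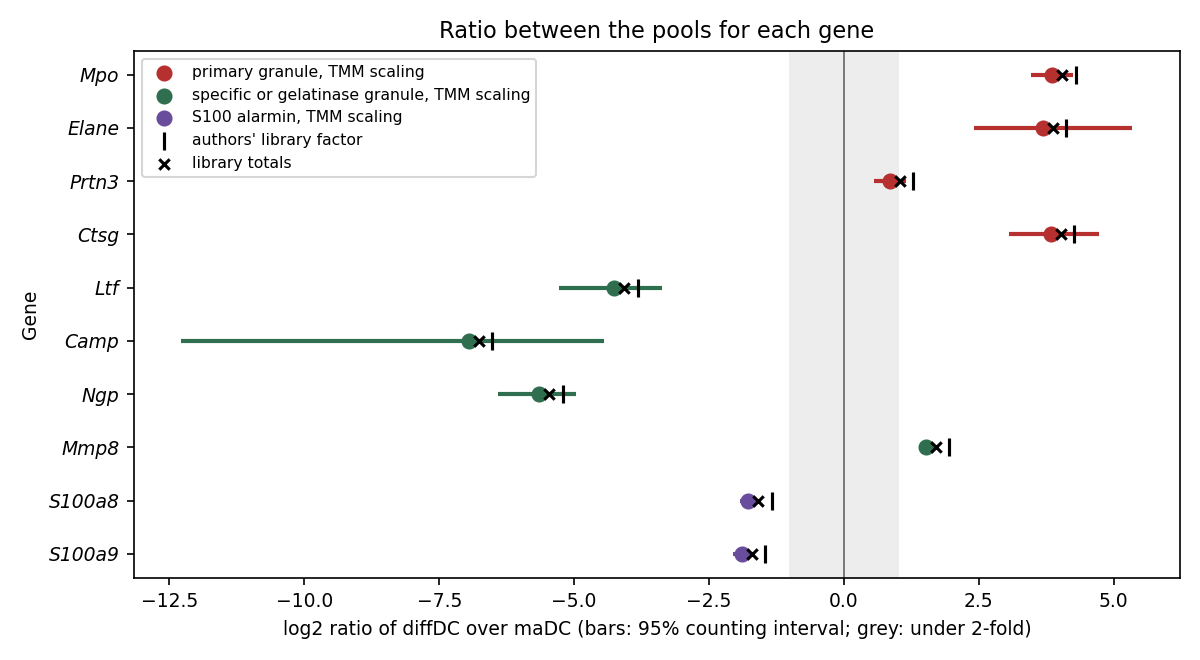
log2 ratio of diffDC over maDC for each gene with its 95% counting interval (bars) under TMM scaling (coloured points), and the same ratio with library totals (crosses) and with the authors' library factor (ticks). Prtn3, at 0.85, is the only gene that passes from inside the grey band under 2-fold to outside it when the scaling changes.

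Per length, the order of the genes differed between the pools. In maDC, S100a8 was highest at 37.8 RPKM (CPM divided by the length in kilobases), followed by S100a9 at 29.9, Mmp8 at 24.9 and Ngp at 7.59. Camp at 2.03 and Prtn3 at 1.95 followed and were not apart within counting error. Ltf stood at 0.748, and Mpo, Ctsg and Elane were lowest at 0.327, 0.203 and 0.0785, with neighbours in that run again not apart.

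In diffDC, Mmp8 was highest at 80.7, and S100a8 and S100a9 followed at 12.6 and 9.12. Next came Mpo at 5.39, Prtn3 at 3.997, Ctsg at 3.28 and Elane at 1.15, each apart from the next beyond counting error. Ngp stood at 0.173, and Ltf and Camp, at 0.0447 and 0.0186, were not apart. Of the 10 genes, Mmp8, S100a8 and S100a9 were above the median of all genes in diffDC, which was 5.98. In maDC these 3 and Ngp were above the median of 4.49. The 4 primary granule genes were below the median in both pools, and Mpo, the most abundant of them in diffDC, ranked 7925th of 15282.

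**Figure D3:**
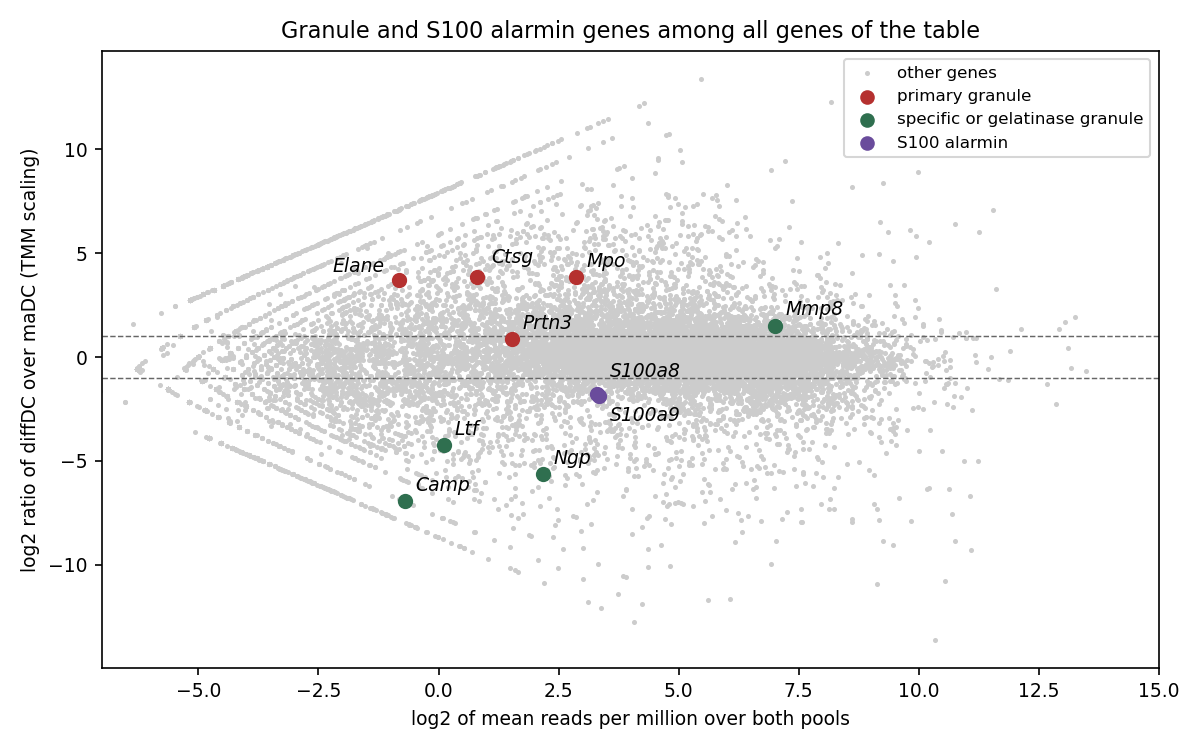
log2 ratio of diffDC over maDC against the log2 of the mean CPM for all 15282 genes (grey) and for the 10 granule and alarmin genes (coloured by granule class). The dashed lines mark 2-fold; Camp, at -6.96, and Mpo, at 3.85, are the lowest and highest of the 10.

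Other granule proteins divided in the same table. Of 33 measured genes of that list, 9 rose, 13 fell and 11 were not called, with a median log2 ratio of -0.76. Over all genes the median was 0.03, with 23.3% called higher and 21.0% lower. Itgam, the CD11b integrin chain carried by specific granules and by macrophages, rose 6.78-fold (interval 6.67 to 6.90). Orm1, the acute-phase orosomucoid, fell 479-fold (interval 337 to 705), from 10044 to 31 reads. Chil3, a chitinase-like protein of mouse neutrophils and macrophages, fell 158-fold (interval 143 to 175). Mmp9, the gelatinase that names the last granule class, had 548 and 996 reads, a log2 ratio of 0.30 that did not pass.

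Among 26 measured genes linked to mature neutrophils and their recruitment, 13 were called lower and 5 higher, with a median log2 ratio of -1.09. Against the 21.0% called lower, 23.3% called higher and median of 0.03 over all genes, the count of higher members was near the share over the table. The 26 were not alike in level. Among those called lower, Clec4e and Il1b held 64604.3 and 31179 reads in maDC, and Retnlg 12. The part of neutrophils in these counts was not tested. Ly6g, the surface antigen that defines mouse neutrophils, had 24 reads in maDC and is listed at 0 in diffDC. That is 11.8-fold lower against a floor of 3 reads over the pool (counting interval from 8.89). Cxcr1, a chemokine receptor, had 199 reads and is listed at 0, 98.0-fold lower against that floor (interval from 79.0). Csf3r, the G-CSF receptor of granulocytes and monocytes, was not called, at 2531.83 and 2691.4 reads and a log2 ratio of -0.47. Hdc, which makes histamine and is expressed by neutrophils and mast cells, fell 218-fold (interval 140 to 363). In the other direction, Clec5a, a myeloid lectin, rose 18.9-fold (interval 16.7 to 21.3).

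Of 17 transcription factors of granulocytes and related myeloid branches, 5 were called higher and 6 lower, beside 23.3% and 21.0% of all genes. Their median of -0.09, against 0.03 over all genes, turned to 0.09 with library totals and to 0.34 with the authors' library factor. Cebpe, needed for specific granule genes, had 10 reads in maDC and 85 in diffDC and rose 5.75-fold (interval 2.98 to 12.4), while the specific granule genes fell. Gfi1, a repressor required for neutrophil growth, fell 7.99-fold (interval 4.78 to 13.996), from 97.35 to 18 reads. Egr1, a factor of the macrophage branch, rose 5.97-fold (interval 5.58 to 6.39). Satb1 and Klf5 fell 54.9-fold (interval 45.2 to 67.2) and 11.2-fold (interval 4.41 to 36.6).

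Of 18 measured inhibitors of granule proteases, 7 were called higher and 7 lower, with a median of -0.53. The shares over all genes were 23.3% and 21.0%, with a median of 0.03. Slpi, which inhibits elastase and cathepsin G, fell 48.6-fold (interval 44.3 to 53.3), from 15482 to 471 reads. Timp1, an inhibitor of metalloproteinases such as MMP8, fell 22.5-fold (interval 20.4 to 24.9). Timp3, of the same family and bound to matrix, rose 56.6-fold (interval 48.3 to 66.8). Serpina3n, an inhibitor of cathepsin G and elastase-like enzymes in the mouse, is listed at 0 in maDC and had 115 reads in diffDC. That is 25.9-fold higher against a floor of 3 reads (interval from 20.8). Timp3 and Serpina3n rose where stroma markers did too, with a median log2 ratio of 5.04, and the part of stroma in them was not tested.

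For the rest of the S100 family, 5 of 13 measured genes rose and 3 fell, with a median log2 ratio of 1.09. Over all genes, 23.3% were called higher and 21.0% lower, with a median of 0.03. S100a10, the annexin A2 partner, rose 3.11-fold (interval 3.0004 to 3.22). S100b, a calcium sensor best known from glia, is listed at 0 in maDC and had 23 reads in diffDC. That is 5.19-fold higher against a floor of 3 reads (interval from 3.89). S100a3 and S100a7a fell 6.89-fold (interval 2.80 to 20.4) and 4.43-fold (interval 1.53 to 15.6), on 28 and 15 reads in maDC. S100a11 fell on more reads, from 2106 to 824.56, 3.77-fold lower (interval 3.48 to 4.09). S100a7a is the nearest gene beside S100a8, while S100a6, the next, was not called at a log2 ratio of 0.70.

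Among 13 genes that receive or relay the alarmin signal, 4 were called higher and 2 lower, and the median was 0.58. Beside them, 23.3% of all genes were called higher and 21.0% lower, with a median of 0.03. The authors' library factor made the count of the 13 genes 7 higher and 1 lower. It also moved the whole table, to 4915 higher and 2400 lower. Tlr4, the receptor shared by LPS and S100A8/S100A9, rose 6.44-fold (interval 6.20 to 6.69), from 3049 to 29010 reads. Alcam, an adhesion molecule reported to bind S100A8/S100A9 in some cells, rose 7.29-fold (interval 6.91 to 7.70). Nfkb1 fell 4.23-fold (interval 4.15 to 4.32), and Ager, which encodes RAGE, fell 2.14-fold (interval 1.65 to 2.77), from 149 to 103 reads. The call on Ager was lost with library totals, with the authors' library factor and when the whole interval had to lie past 2-fold.

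Position on the chromosome was read from RefSeq for the 3 listed genes on either side of each member. Of 48 different neighbours, 11 were higher, 13 lower and 24 not called, with a median log2 ratio of -0.19. These counts were near the shares over all genes, 23.3% higher and 21.0% lower with a median of 0.03. Around Mpo, the nearest gene on one side, Bzrap1, fell 27.4-fold (interval 25.5 to 29.5), and the nearest on the other, Mks1, had a log2 ratio of -0.25. Beside the Prtn3 and Elane pair, Plppr3 rose 5.001-fold (interval 3.05 to 8.70) on 18 and 133 reads, and Med16 had a log2 ratio of -0.32. The neighbours nearest to Ngp, Ptpn23 and Klhl18, had log2 ratios of -0.59 and 0.42, and those nearest to Camp, Nme6 and Cdc25a, of 0.82 and 0.37, none of which passed.

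Ltf lay between Rtp3, with 5 reads in maDC and listed at 0 in diffDC, and the chemokine-binding receptor gene Ccrl2, which fell 8.70-fold (interval 8.44 to 8.97). Ctsg lies in the cluster of mast cell proteases and granzymes. Its nearest neighbours, Mcpt8 and Gzmc, held 5 and 7 reads, and 11 and 0 reads. Mmp8 lies in a cluster of metalloproteinases, where its nearest neighbours rose more than it did: Mmp27 by 223-fold (interval 135 to 399), from 15 to 4944 reads, and Mmp10 by 53.2-fold (interval 22.6 to 165), from 5 to 393. The genes further out were mixed. Mmp3, with 0 and 515 reads, was called higher, and Mmp12 was not called at a log2 ratio of 0.90. Mmp20, with 26 and 0 reads, and Mmp7, with 8 and 2, were called lower. Past S100a9, the nearest listed gene was Sprr2a1, 1520 kb away, with 0 and 12.43 reads.

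**Figure D4:**
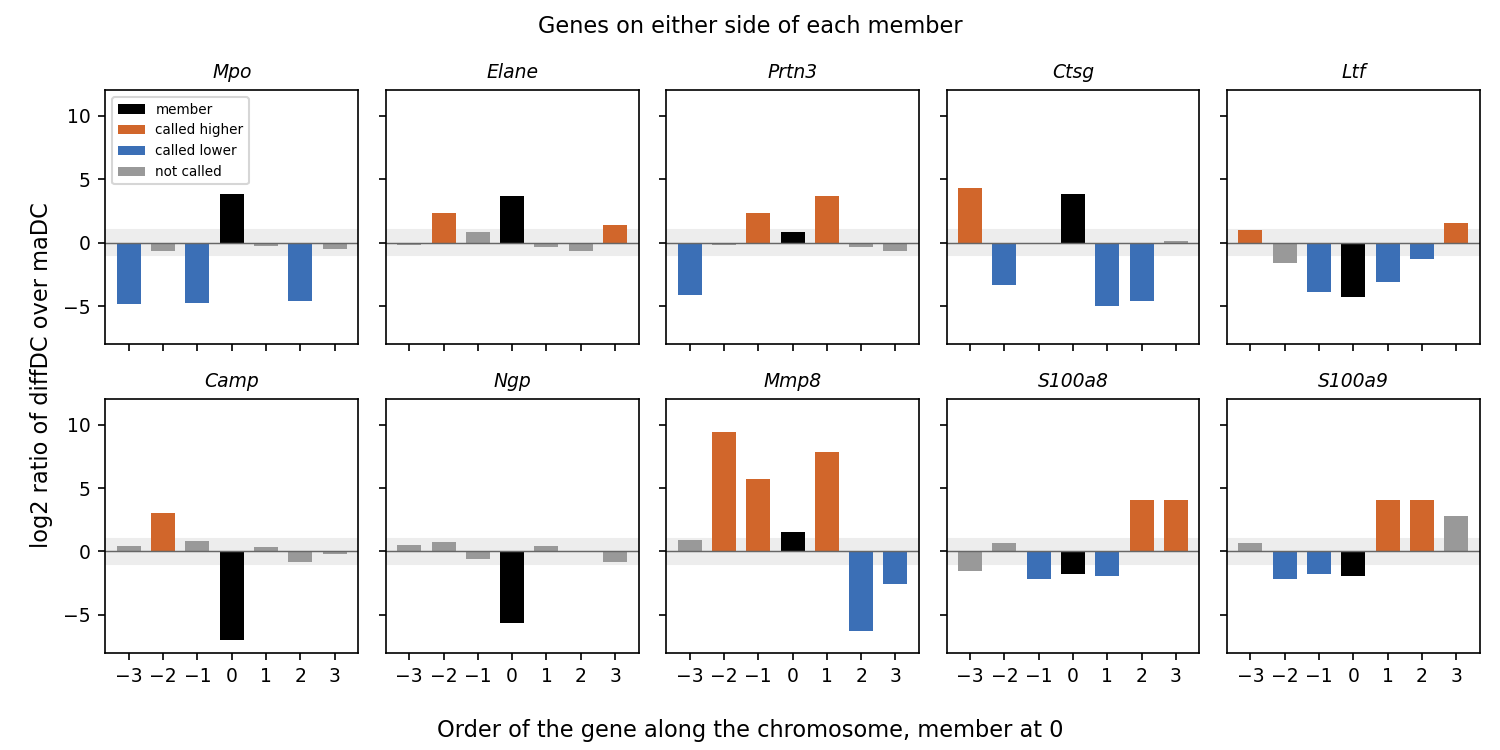
log2 ratio of diffDC over maDC for each member (black, at 0) and for the 3 listed genes on either side of it in chromosome order (orange called higher, blue called lower, grey not called). The bars beside Ngp stay under 2-fold in either direction, while Mmp27 and Mmp10 beside Mmp8 reach 7.80 and 5.73.

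Markers of other cells that the cultures could hold moved in the same comparison. For the counts that follow, 23.3% of all genes were called higher and 21.0% lower, with a median log2 ratio of 0.03. The 14 measured stroma markers, 11 called higher and 1 lower, had a median log2 ratio of 5.04. It was 4.31 when a gene without reads was set to its bound, and their summed level went from 14.9 to 767 CPM. Col3a1, a fibrillar collagen, rose 697-fold (interval 475 to 1066), Cxcl12, a stromal chemokine, 205-fold (interval 130 to 346), and Thy1 fell 10.3-fold (interval 3.09 to 54.2) on 21 reads. Fbln1 was at 0 in maDC. The part of stroma in the values of Mmp8 and its neighbours was not tested.

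Of the 11 monocyte markers, 8 were called higher and 3 lower, at a median of 3.77 and a summed level of 715 and 5983 CPM. Cx3cr1 and Ccr2, chemokine receptors of monocytes, rose 72.7-fold (interval 53.7 to 101) and 56.5-fold (interval 41.9 to 77.6), while Ly6c2, the antigen of inflammatory monocytes, fell 30.4-fold (interval 27.0 to 34.2) and Treml4 3.88-fold (interval 2.83 to 5.38). Of the 12 progenitor markers, 1 was called higher and 7 lower, at a median of -1.51 and a summed level of 550 and 660 CPM. Most of these sums came from Cdk6, at 64.9 and 373 CPM, and Igfbp4, at 410 and 261 CPM and not called. Cdk6 rose 5.05-fold (interval 4.90 to 5.21), whereas Cd34 fell 4.08-fold (interval 3.45 to 4.83), Flt3 16.8-fold (interval 13.7 to 20.8) and Gata2 116-fold (interval 49.1 to 358). The part of monocytes or progenitors in the rise of Mpo, Elane and Ctsg was not tested.

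For mast cells and basophils, which also make cathepsin G, 2 of 11 measured markers were called higher and 5 lower, at a median of -0.56 and a summed level of 59.0 and 25.6 CPM. The 11 were not alike in level. Hdc had 2809 reads in maDC and 19 in diffDC, Kit 781.89 and 331.35, Gata2 391 and 5, and Prss34 60 and 9, and each of these was called lower. Il1rl1, the IL-33 receptor, rose 67.5-fold (interval 43.3 to 113), from 19.09 to 1902.46 reads. The chymase gene Cma1 is listed at 0 in maDC and had 15 reads in diffDC. That is 3.38-fold higher against a floor of 3 reads (interval from 2.43). Few reads fell on the others, with Mcpt1 at 7 and 1 and called lower, Mcpt8 at 5 and 7, Cpa3 at 3 and 6, Ms4a2 at 2 and 4 and Fcer1a at 1 and 1. The part of mast cells and basophils in the rise of Ctsg was not tested. Of the 10 eosinophil markers, 1 was called higher and 4 lower, at a median of -1.47 and a summed level of 11.4 and 10.2 CPM. Epx and Ear1 were at 0 in diffDC and Ccr3 at 0 in maDC. Ear6 and Prg2 fell 49.2-fold (interval 16.4 to 243) and 20.7-fold (interval 8.45 to 65.7). Ccr3 had 46 reads in diffDC, 10.4-fold higher against a floor of 3 reads (interval from 8.11).

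**Figure D5:**
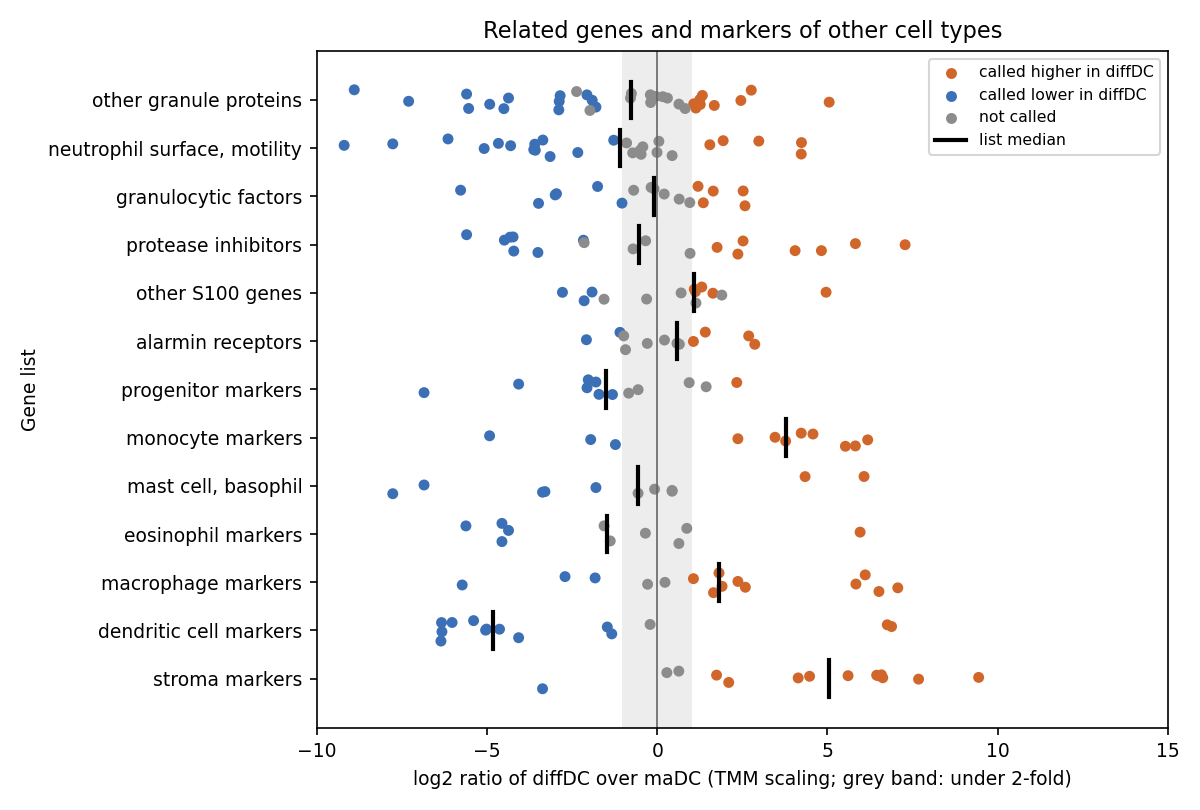
log2 ratio of diffDC over maDC for each gene of the related lists and of the marker lists (orange called higher, blue called lower, grey not called), with the list median as a black bar. Medians run from -4.83 for dendritic cell markers to 5.04 for stroma markers, and that of the other granule proteins is -0.76.

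The cells were also checked against markers of their labelled type. Itgax, which encodes the CD11c used for selection, had 26978.3 and 34456.9 reads and a log2 ratio of -0.21, or 0.23 under the authors' factor. The 14 dendritic cell markers had a median of -4.83, 11 of them falling and 2 rising. H2-Aa, an MHC class II chain, fell 80.9-fold (interval 78.4 to 83.5) and Ccr7 81.9-fold (interval 78.9 to 85.0). Cd209a went from 1 to 160 reads, 108-fold higher (interval 19.2 to 4304). Clec10a is listed at 0 in maDC, 19.7-fold higher in diffDC against a floor of 3 reads (interval from 15.6). Macrophage markers, 15 in number, had a median of 1.81, with 10 called higher and 3 lower. Adgre1, which encodes F4/80, rose 3.52-fold (interval 3.47 to 3.57), Mrc1 134-fold (interval 129 to 139) and C1qa 91.4-fold (interval 85.1 to 98.2), and Spic and Marco fell 53.1-fold (interval 41.7 to 68.8) and 6.54-fold (interval 6.11 to 7.01). S100a8, S100a9 and Mmp8 can be made by monocytes and macrophages as well as neutrophils, and the part of each cell type in their values was not tested.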

How the data were processed

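RNA from 2 groups, maDC and diffDC, with 3 libraries each per the labels, was sequenced on an Illumina HiSeq instrument. The read numbers that the authors deposited were taken for expected counts, since within 0.005 only 58.2% (maDC) and 57.5% (diffDC) of values were whole. They are pooled over a group's libraries; how they were pooled, the aligner and the counter are not given in the sources used here. The submitters' processing notes name GRCm38.p4 and mm10. Gene length and the log2 ratio were also deposited by the authors; their p-values and q-values, deposited by the authors, were not used, as pooled reads carry no spread between libraries. One damaged log2 cell (Zdhhc21) does not affect the median used for the authors' library factor.

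Reads were scaled with TMM factors (edgeR 4.0.16, R 4.3.3), a log2 library ratio of 0.56. Counts were rounded for this and for exact Clopper-Pearson 95% intervals. A gene was called at 2-fold or more with an interval excluding no difference. For the ratios, 0.5 replaced 0 reads, and folds against 0 use a floor of 3 reads over the pool. Such folds take the other count as exact, and the lower limit of the interval is given beside them. No gene was filtered out, and no p-value is given. Differences between genes used the exact conditional odds ratio, for 15 pairs. CPM is relative to the library total, and RPKM divides CPM by the deposited length in kilobases. Genes were placed by Entrez identifier on RefSeq GRCm38.p6 (15192 of 15282), and promoters of 10 of 10 members matched. Alternatives were library totals, the authors' factor, DESeq2 1.42.0 size factors, stricter calls, a filter at 10 reads and 1 in place of 0. The calling was tested on simulated data that held counting error only. Intervals came from scipy 1.17.1 under Python 3.11.15 and figures from matplotlib 3.10.9.

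The members and lists were chosen with earlier results of these data known. Genes named are the members, for each list the 2 largest called rises and falls with at least 20 reads, Lcn2, Cebpe, Gfi1, Tlr4, Ly6g, Csf3r, Itgax, Adgre1 and Cd34, and the nearest neighbour on each side; 1 gene that the rule takes is not reported here. Ctsc, Srgn, Mmp9, S100a6, S100a11, Cpa3, Fcer1a, Ms4a2, Cma1, Mcpt1, Prss34, Kit, Epx, Ear1, Fbln1, Igfbp4, Clec4e, Il1b, Retnlg, Mmp3, Mmp7, Mmp12 and Mmp20 were added after their values were seen.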

Additional observations from a re-analysis of the deposited data

How the results depend on the processing

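Mpo, Elane, Ctsg and Mmp8 stayed higher and Ltf, Camp, Ngp, S100a8 and S100a9 lower under library totals, the authors' library factor, DESeq2 size factors, an interval wholly past 2-fold, a filter at 10 reads and 1 read in place of 0. At a 4-fold limit, 3 of the 10 genes were lower in place of 5 and 3 higher in place of 4, and over all genes 1982 were higher and 1847 lower; this follows from the larger limit. Prtn3 passed with library totals (log2 ratio 1.04) and with the authors' factor (1.29). The median of the listed transcription factors, -0.093, turned to 0.094 and 0.34 under these. No library could be left out of a pooled value. No paired analysis was possible because the columns carry no replicate numbers. Depth limits Camp, Ltf and Elane, with 1, 11 and 5 reads in the lower pool.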
